A study of Rattus norvegicus with 11 samples.

Results

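Soleus muscle RNA was compared between heavy and light adult male rat offspring, using the body weight that the labels record for each animal. Offspring of 750 g or more were called heavy (6 of the 11 animals in the series) and those under 750 g light (5 of 11). The rule used body weight alone and no expression value. The heavy animals weighed 794, 831, 760, 909, 884 and 900 g (heavy 1 to 6, mean 846 ± 61.1 g, SD, n = 6) and the light animals 704, 642, 609, 734 and 625 g (light 1 to 5, mean 663 ± 53.7 g, SD, n = 5). The animals nearest the boundary were heavy 3 at 760 g and light 4 at 734 g.

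All animals were Sprague Dawley males killed at 12 months after a fast of 1 to 2 hours, and the labels name 11 different litters. Their mothers ate either a control diet or a diet rich in lard and sucrose (high-fat) from 3 weeks before mating until the end of lactation. From weaning at postnatal day 21 every animal ate the same chow, so no offspring was itself on the high-fat diet as an adult. Heavy 1 to 4 and light 1 and 2 had control mothers, while heavy 5 and 6 and light 3 to 5 had high-fat mothers. The maternal diet was therefore spread unevenly over the classes (4 control and 2 high-fat in heavy, 2 control and 3 high-fat in light), and each gene was tested with the diet as a covariate and again without it. Body weight was recorded and not assigned, so the comparison cannot tell a consequence of weight from anything else that differs between these animals.

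The soleus is a postural hind limb muscle made mostly of slow, oxidative fibres, which draw on mitochondria and on both glucose and fatty acids for continuous work. A heavier body loads such a muscle more, and loading, innervation, growth factors such as IGF-1 and the insulin signal are all known regulators of muscle gene expression. Weight gained as fat and weight gained as lean tissue are different things, so the organ weights of the animals are described first.

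Libraries held 10.2 to 15.4 M counted reads (M for mega), 13.4 ± 1.83 M in heavy and 12.0 ± 1.90 M in light (SD, n = 6 and 5, two-sided exact permutation p = 0.225). Levels below are CPM, counts scaled to a common library size of 1 M reads, after TMM scaling, which evens out library composition. Myh7, the slow myosin heavy chain that defines soleus fibres, stood at 17367 to 25146 CPM in heavy and 18017 to 24737 CPM in light libraries. Rows for ribosomal RNA, which poly(A) selection should remove, took 0.223% to 1.10% of the counts in heavy and 0.126% to 0.462% in light libraries (exact permutation p = 0.0238, and 0.167 after adjustment over 7 library measures). The first principal component held 26.9% of the variance and its heavy and light values overlapped (exact permutation p = 0.186).

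Heavy offspring had larger hearts and livers in g. Neither organ was divided by body weight, which averaged 846 g in heavy and 663 g in light animals. The heart weighed 1.685 to 1.91 g in heavy animals, with a median of 1.835 g, against 1.68, 1.37, 1.30, 1.49 and 1.65 g in light 1 to 5, so that the classes did not overlap. The means were 1.83 ± 0.0779 g and 1.5002 ± 0.166 g (SD, n = 6 and 5), a difference of 0.326 g with a two-sided exact permutation p of 0.00216, the smallest that these group sizes allow (0.0141 adjusted over 13 measures). The liver was 1.49-fold heavier, at 26.9 ± 1.09 g against 18.1 ± 3.18 g (SD, n = 6 and 5, exact permutation p = 0.00216, adjusted 0.0141), and its lowest heavy value of 25.0 g lay above the highest light value of 20.9 g. With the assignments kept within maternal diet, the adjusted p for heart and liver was 0.0433. Over all assignments, leaving out any 1 heavy animal put the adjusted p of both at 0.0516. Their unadjusted p was then the smallest that such a design allows.

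No other measure passed. The left kidney weighed 2.05 ± 0.206 g in heavy and 1.77 ± 0.193 g in light (SD, n = 6 and 5, exact permutation p = 0.0584, adjusted 0.253), and the brain 1.95 ± 0.166 g and 1.88 ± 0.140 g (exact permutation p = 0.416). The 3 dissected fat depots together weighed 64.8 ± 22.0 g in heavy and 49.6 ± 30.0 g in light, 1.31-fold (SD, n = 6 and 5, exact permutation p = 0.351). Their share of the body was 7.54 ± 2.12% in heavy and 7.58 ± 5.04% in light (SD, n = 6 and 5, exact permutation p = 0.991). The lightest animal of all, light 3 at 609 g, was the fattest, with 16.3% fat, while the other light animals had 3.74% to 7.12% and the heavy animals 4.79% to 10.5%. Plasma insulin averaged 2.02 ± 0.495 ng/ml in heavy and 1.66 ± 0.429 ng/ml in the 4 light animals with a value (exact permutation p = 0.257, adjusted 0.478). With assignments kept within maternal diet the insulin difference was 0.477 ng/ml (exact permutation p = 0.0222, adjusted 0.0963).

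Along the continuous scale, body weight again ran with heart (Pearson r = 0.869, permutation p = 0.00057, Spearman rho = 0.945, permutation p = 1e-05, the smallest that 100000 random pairings can give) and liver (r = 0.862, permutation p = 0.00092, rho = 0.782, permutation p = 0.0063). The adjusted p of r over 13 measures was 0.00598 for both. Without the 2 animals farthest from the median weight, r was 0.814 for heart and 0.879 for liver. Within the 6 control offspring r was 0.905 for heart (exact permutation p = 0.00694, adjusted 0.0843) and 0.761 for liver (exact permutation p = 0.0819). No correlation is given within the 5 high-fat offspring. Fat as a percentage of body weight had r = 0.0511 over all 11 animals (permutation p = 0.895, rho = 0.382, permutation p = 0.247) and 0.835 without the 2 farthest animals, of which light 3 is one.

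**Figure D1:**
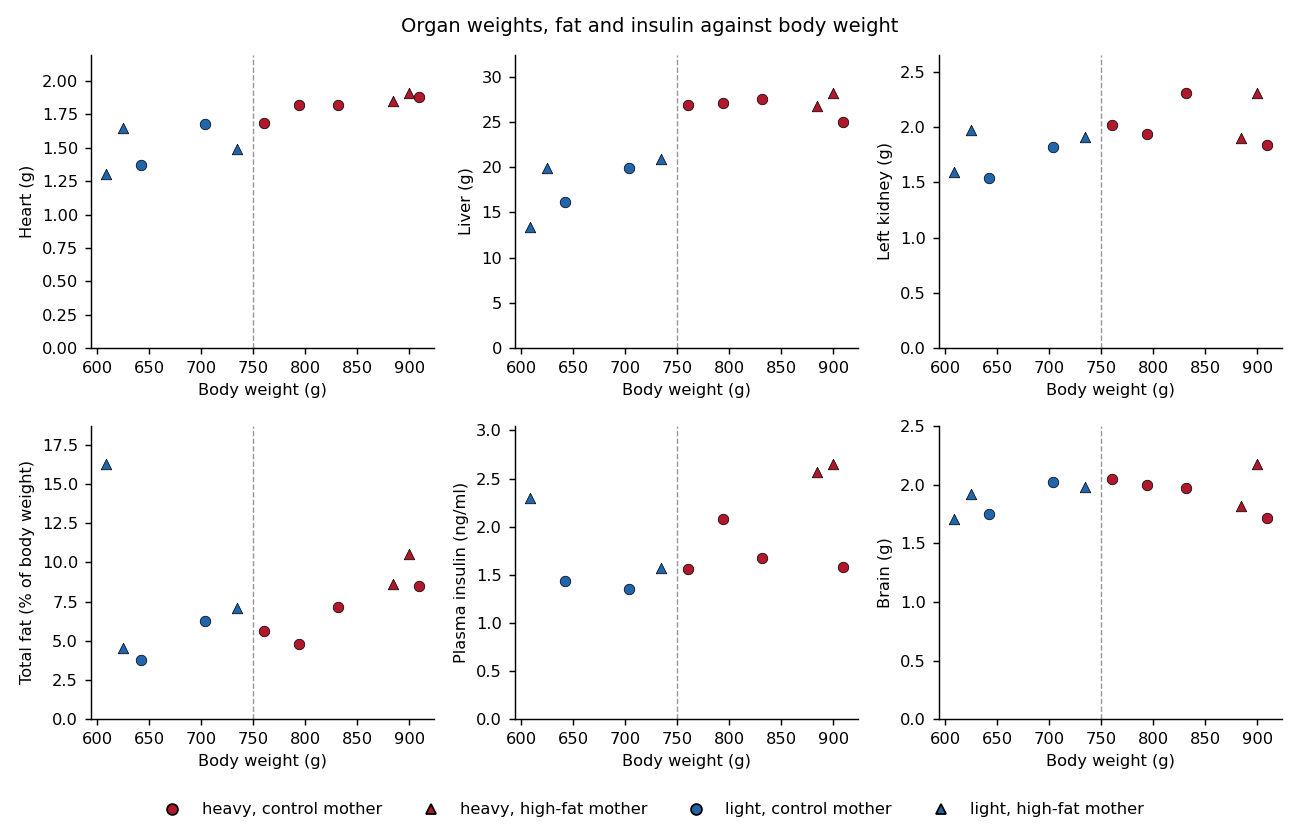
Heart, liver, left kidney, fat, insulin and brain (vertical axes, in the units shown) against body weight in g, 1 point per animal, red for heavy and blue for light, circles for control and triangles for high-fat mothers, dashed line at 750 g. Every heavy heart and liver lies above every light one, while light 3 at 609 g stands alone at 16.3% fat.

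Across 10814 genes tested, 1 gene was called in relation to body weight, and it fell. Enah encodes Mena, a protein of the Ena/VASP family that keeps actin filaments growing at their ends and sits at cell adhesions. Enah read 84.0, 109, 113, 58.3, 84.1 and 68.1 CPM in heavy 1 to 6 and 113, 200.0, 219, 104 and 164 CPM in light 1 to 5. The lightest animals (light 2, 3 and 5) had the highest levels and the heaviest animals (heavy 4 and 6) the lowest. It fell by 0.51 ± 0.066 (SE) on the log2 scale per 100 g of body weight, 29.9% per 100 g on the linear scale, in edgeR's quasi-likelihood test with diet as covariate (Benjamini-Hochberg adjusted p = 0.0478 over all genes). Without the diet term the adjusted p was 0.0172. A single called gene is 0.00925% of the genes tested, in the fit with the diet term as in the fit without it.

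The size of the Enah slope varied little and its call depended on the settings. Over 23 other settings in g, the slope lay between -0.55 and -0.47 per 100 g. Counting also the log2 and the rank of body weight, the adjusted p passed 0.05 in 11 of 25 settings with diet in the model. It passed without heavy 2 (0.0318) or heavy 5 (0.0378) and failed without any 1 of the other 9 animals (0.0572 to 0.398). The adjusted p was 0.140 with total fat as a further covariate and 0.328 without heavy 6 and light 5 together. It was highest, at 0.672, with the letter of the animal's name as covariate. That letter was spread unevenly over the classes, and its meaning is not given. It was A in heavy 1, 3 and 4 and light 5, and C in heavy 5 and light 1 to 3. The others had H. With the letter in the model 154 genes rose and 126 fell at an unadjusted p under 0.05 in edgeR, against 407 and 350 without it. With diet alone as covariate, DESeq2 called 23 genes for the same slope and edgeR's likelihood ratio test 10, Enah among them both times.

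The 250 bases upstream of the outermost Enah start in RefSeq are shown because Enah was the only gene called. In assembly GRCr8 they lie on the minus strand at chr13:96269797-96270046, written 5′ to 3′ with the motif CAGCTG in capitals, a form of the E-box that myogenic factors such as myogenin recognise.
Enah: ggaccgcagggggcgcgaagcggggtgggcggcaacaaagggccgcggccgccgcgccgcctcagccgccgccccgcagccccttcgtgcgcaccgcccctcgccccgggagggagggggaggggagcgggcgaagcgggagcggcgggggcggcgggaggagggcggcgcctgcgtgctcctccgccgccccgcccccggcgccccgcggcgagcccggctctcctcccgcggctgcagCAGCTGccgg
The motif equals its own reverse complement, so both strands are covered by 1 search, and it starts 10 bases before the transcription start. It is common: 12.0% of 33469 RefSeq promoters hold it in the same window. A match in letters is a description of the sequence and does not show that a factor binds there.

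At an unadjusted p under 0.05, 407 genes (3.76%) had higher and 350 (3.24%) lower expression with rising body weight with diet in the model, and 482 (4.46%) and 384 (3.55%) without it. The genes with the next smallest p among the lower ones were Ckap4, Rrad, Mybph and Myh10, none of which passed after adjustment. Ckap4, an endoplasmic reticulum membrane protein, had a log2 slope of -0.50 ± 0.081 (SE) per 100 g (edgeR adjusted p = 0.259). It stood at 36.2 and 36.7 CPM in heavy 4 and 5 and at 134 and 106 CPM in light 2 and 3, but light 4, the heaviest of the light animals, had 44.4 CPM. Rrad, a small GTPase that restrains calcium channels, had a slope of -0.42 ± 0.081 (adjusted p = 0.367). Mybph, a myosin binding protein of the thick filament, had the steepest of these slopes, -0.80 ± 0.161 (adjusted p = 0.491). Myh10, a non-muscle myosin heavy chain, had -0.22 ± 0.048 (adjusted p = 0.618), from 503 CPM in light 2 to 218 CPM in heavy 6.

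Among genes with rising values the smallest p belonged to Osgin1, Ppcs, Hdhd3, Fars2 and Acox2. Osgin1, which responds to oxidative stress, had a slope of 0.39 ± 0.073 per 100 g (edgeR adjusted p = 0.367). Its light values were 10.8, 11.8, 10.6, 20.7 and 9.73 CPM and the heavy ones 11.9 to 22.1 CPM, with the exception on each side being the animal nearest to 750 g (light 4 and heavy 3). Ppcs, an enzyme of coenzyme A synthesis, had a slope of 0.28 ± 0.053 (adjusted p = 0.367) and read 19.7 CPM in the lightest and 46.7 CPM in the heaviest animal. Hdhd3 (0.33 ± 0.064), Fars2, the phenylalanyl-tRNA synthetase of mitochondria (0.18 ± 0.037), and Acox2, a peroxisomal oxidase of branched-chain substrates (0.33 ± 0.073), had adjusted p of 0.367, 0.511 and 0.618.

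**Figure D2:**
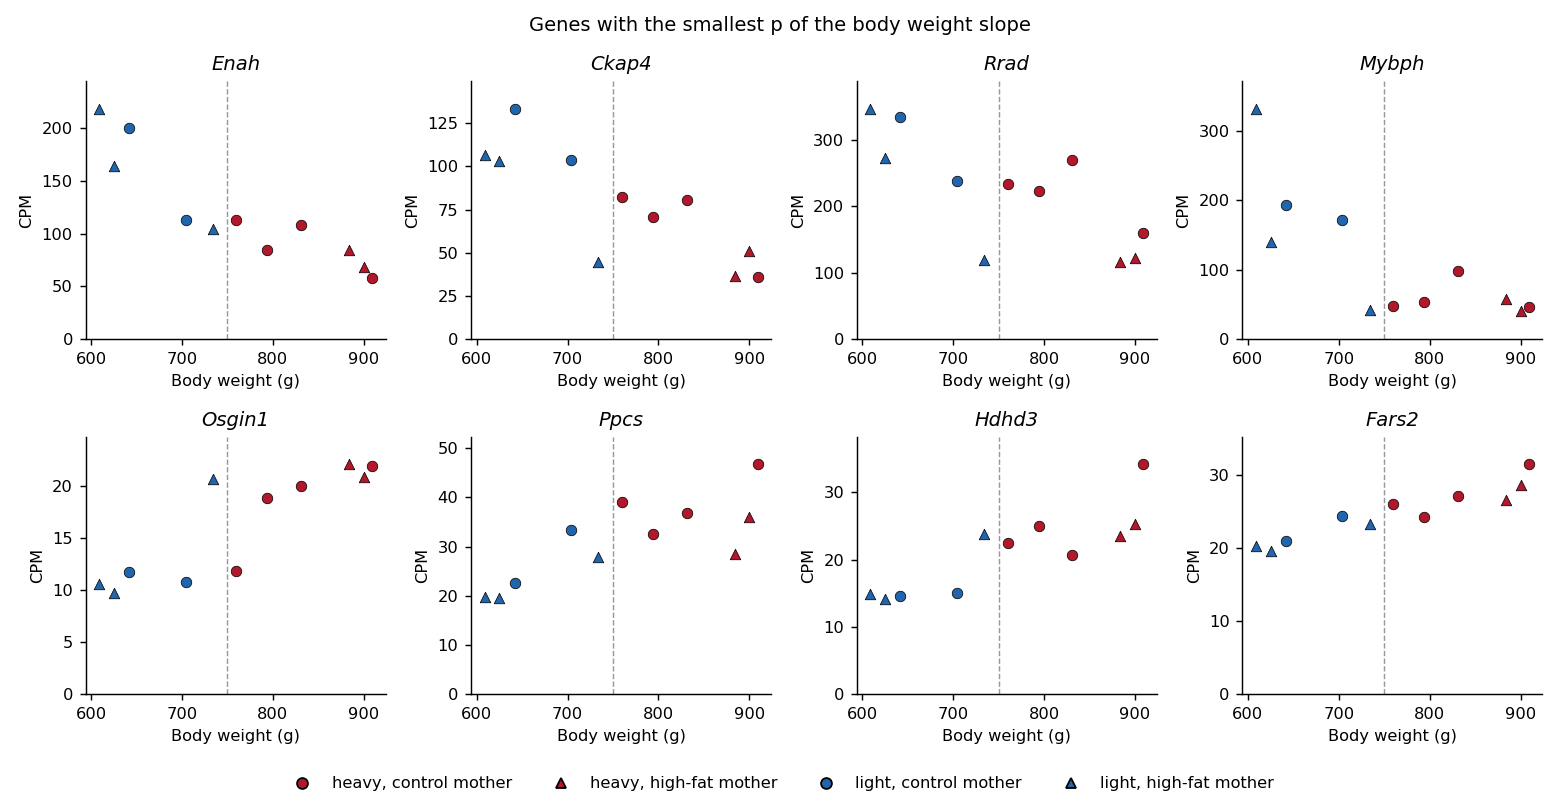
CPM (vertical axes, from 0) against body weight in g for the 4 genes with the smallest p among falling slopes (top row) and 4 of those among rising slopes (bottom row), 1 point per library, red heavy, blue light, circles control and triangles high-fat mothers, dashed line at 750 g. Enah goes from 219 CPM at 609 g to 58.3 CPM at 909 g. Light 4 at 734 g sits near the heavy animals for Ckap4, Mybph, Osgin1 and Hdhd3.

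Set as 2 classes, heavy and light muscle did not differ in any gene after adjustment. With diet as covariate edgeR called 0% of 10814 genes (0 genes, smallest adjusted p = 0.972), with 182 genes (1.68%) higher and 240 (2.22%) lower at an unadjusted p under 0.05. Without the diet term it again called 0% (smallest adjusted p = 0.852), with 236 genes (2.18%) higher and 286 (2.64%) lower at an unadjusted p under 0.05. Both directions together held 422 genes with the diet term and 522 without it. Each is a smaller share of the genes tested than the 0.05 to be expected if no gene differed. DESeq2 called 1 gene with diet in the model, Chac1, and edgeR's likelihood ratio test 3, namely Chac1 and the ribosomal RNA rows Rn28s and Rn45s. Limma voom called none. With diet and the letter of the animal's name as covariates, edgeR had 92 genes higher and 98 lower at an unadjusted p under 0.05. The median log2 difference over all genes was -0.01, and 47.8% of them were higher in heavy muscle. All fold changes below are therefore descriptions of genes that did not pass over the whole table, named by their p.

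Chac1 had the smallest p. It encodes a gamma-glutamylcyclotransferase that degrades glutathione and is a known target of the transcription factor ATF4 in the integrated stress response. The heavy libraries held 9.98, 4.23, 13.6, 20.3, 9.04 and 40.7 CPM and the light ones 2.12, 2.56, 7.41, 4.05 and 7.10 CPM. All heavy animals but heavy 2 were above the highest light animal. The fitted difference was 2.17 ± 0.45 (SE) on the log2 scale, 4.49-fold, and 1.68 without heavy 6. Cebpb, a C/EBP factor that pairs with ATF4, stood at 79.5, 92.8, 80.4, 99.98, 76.8 and 249 CPM in heavy and at 53.2, 53.2, 112, 81.4 and 82.4 CPM in light, which overlap (log2 difference 0.78 ± 0.24, and 0.39 without heavy 6).

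Slc25a25, a calcium-dependent ATP-Mg/phosphate carrier of the inner mitochondrial membrane, had a log2 difference of 1.68 ± 0.45. Heavy 1 to 6 held 65.8, 29.4, 18.6, 57.8, 41.2 and 196 CPM and light 1 to 5 held 23.3, 13.5, 31.1, 31.9 and 16.4 CPM. Heavy 2 and 3 were within the light range and heavy 6 was far above the rest, and the difference was 1.01 without heavy 6.

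The upstream 250 bases of Chac1 and Slc25a25 from RefSeq (GRCr8) are shown because they had the largest fitted differences among the 10 higher genes with the smallest p, apart from ribosomal RNA. They lie at chr3:126795881-126796130 on the plus strand and chr3:36116582-36116831 on the minus strand, both written 5′ to 3′. Capitals mark TTGCATCA, the composite element read by ATF4 with C/EBP proteins, in Chac1, and TGACGTCA, the full cAMP response element, in Slc25a25.
Chac1: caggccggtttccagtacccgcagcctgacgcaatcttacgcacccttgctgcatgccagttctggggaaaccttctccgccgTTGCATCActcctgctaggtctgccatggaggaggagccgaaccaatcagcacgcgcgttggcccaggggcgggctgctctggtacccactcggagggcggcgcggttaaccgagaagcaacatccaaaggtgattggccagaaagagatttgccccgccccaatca
Slc25a25: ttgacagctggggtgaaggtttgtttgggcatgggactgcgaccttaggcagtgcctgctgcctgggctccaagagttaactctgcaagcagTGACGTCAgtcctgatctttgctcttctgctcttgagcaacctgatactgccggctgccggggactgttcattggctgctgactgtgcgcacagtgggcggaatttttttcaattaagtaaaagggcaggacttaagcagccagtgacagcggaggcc
Each motif occurs once in its window, starting 167 bases upstream of the Chac1 start and 158 bases upstream of the Slc25a25 start. Searched on both strands, with no overlap between the motifs, TTGCATCA (or TGATGCAA) is in 0.693% and TGACGTCA in 1.59% of the 33469 promoters. Neither match is evidence that the factor was bound or active in these muscles.

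Ribosomal RNA rows made up 2 of the 10 smallest p among higher genes. Rn45s, the precursor of the large ribosomal RNAs, was at 1909, 11006, 3298, 8151, 8819 and 5236 CPM in heavy and 1111, 1331, 1334, 1308 and 3560 CPM in light libraries (log2 difference 2.05 ± 0.47). Rn28s had a like difference (2.04 ± 0.47). Both depend on how much non-polyadenylated RNA was carried through the selection, and the part of that step in their difference was not tested.

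The remaining higher genes had smaller or scarcer signals. Slc5a3, the sodium/myo-inositol cotransporter that cells raise against osmotic stress, was at 1.98, 1.32, 1.37, 1.09, 1.17 and 1.08 CPM in heavy and 0.571, 0.365, 0.583, 0.853 and 0.478 CPM in light, with no overlap (log2 difference 1.21 ± 0.32). Fntb, the beta subunit of protein farnesyltransferase, was at 18.5 to 23.0 CPM in heavy and 15.0 to 18.2 CPM in light, again without overlap (0.37 ± 0.10). Pik3ip1, a membrane inhibitor of PI3 kinase, was at 48.4 to 67.5 CPM in heavy and at 29.5, 25.4, 36.5, 62.9 and 32.1 CPM in light, light 4 being the one in the heavy range (0.70 ± 0.20). Gpr1, a receptor for chemerin, stood at 1.13 to 4.52 CPM in heavy and 0.979 to 2.41 CPM in light (0.85 ± 0.25).

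The genes with the smallest p among those lower in heavy muscle are described next. The list of load-responsive and Z-disc genes had 15 of 21 lower (median -0.16, and -0.04 without light 3), 1 at an unadjusted p under 0.05 (background 2.22%). Its median was 0.02 in control and -0.14 in high-fat offspring alone. Of the genes named in this paragraph, only Xirp2 is on that list. Mybph was at 53.7, 98.6, 47.1, 45.9, 57.8 and 40.2 CPM in heavy and 171, 194, 332, 41.7 and 140 CPM in light (log2 difference -1.68 ± 0.42). Light 4 alone was in the heavy range. Xirp2, an actin-binding protein of the intercalated disc and of remodelling sarcomeres, was at 1293 to 1643 CPM in 5 heavy libraries and 2423 CPM in heavy 3, against 2162 to 2979 CPM in light (-0.63 ± 0.16). Nedd9, a scaffold of focal adhesions (-0.71 ± 0.19), and Myh14, a non-muscle myosin heavy chain (-0.49 ± 0.14), were lower than every light library in 5 and 4 of the 6 heavy libraries. Enah had a class difference of -0.93 ± 0.24, with 4 of 6 heavy libraries below every light one.

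Irs1, the docking protein that carries the insulin and IGF-1 signal to PI3 kinase, stood at 20.6, 20.2, 14.1, 15.0, 16.1 and 8.03 CPM in heavy and 16.6, 39.2, 21.5, 25.9 and 28.5 CPM in light (-0.86 ± 0.25). Light 1 was within the heavy range and the other 4 light animals above it. Arid5b, a chromatin factor of adipose and muscle metabolism, separated the classes completely, with 10.8 to 13.9 CPM in heavy and 15.6 to 20.0 CPM in light (-0.45 ± 0.11). Rara, a retinoic acid receptor (-0.51 ± 0.13), and Kbtbd11 (-1.09 ± 0.30) were below every light library in 5 of 6 heavy libraries. Pcdhgc5 also had no overlap (-0.60 ± 0.17), but its last exons are shared with the other members of the gamma protocadherin cluster, so its count is uncertain.

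**Figure D3:**
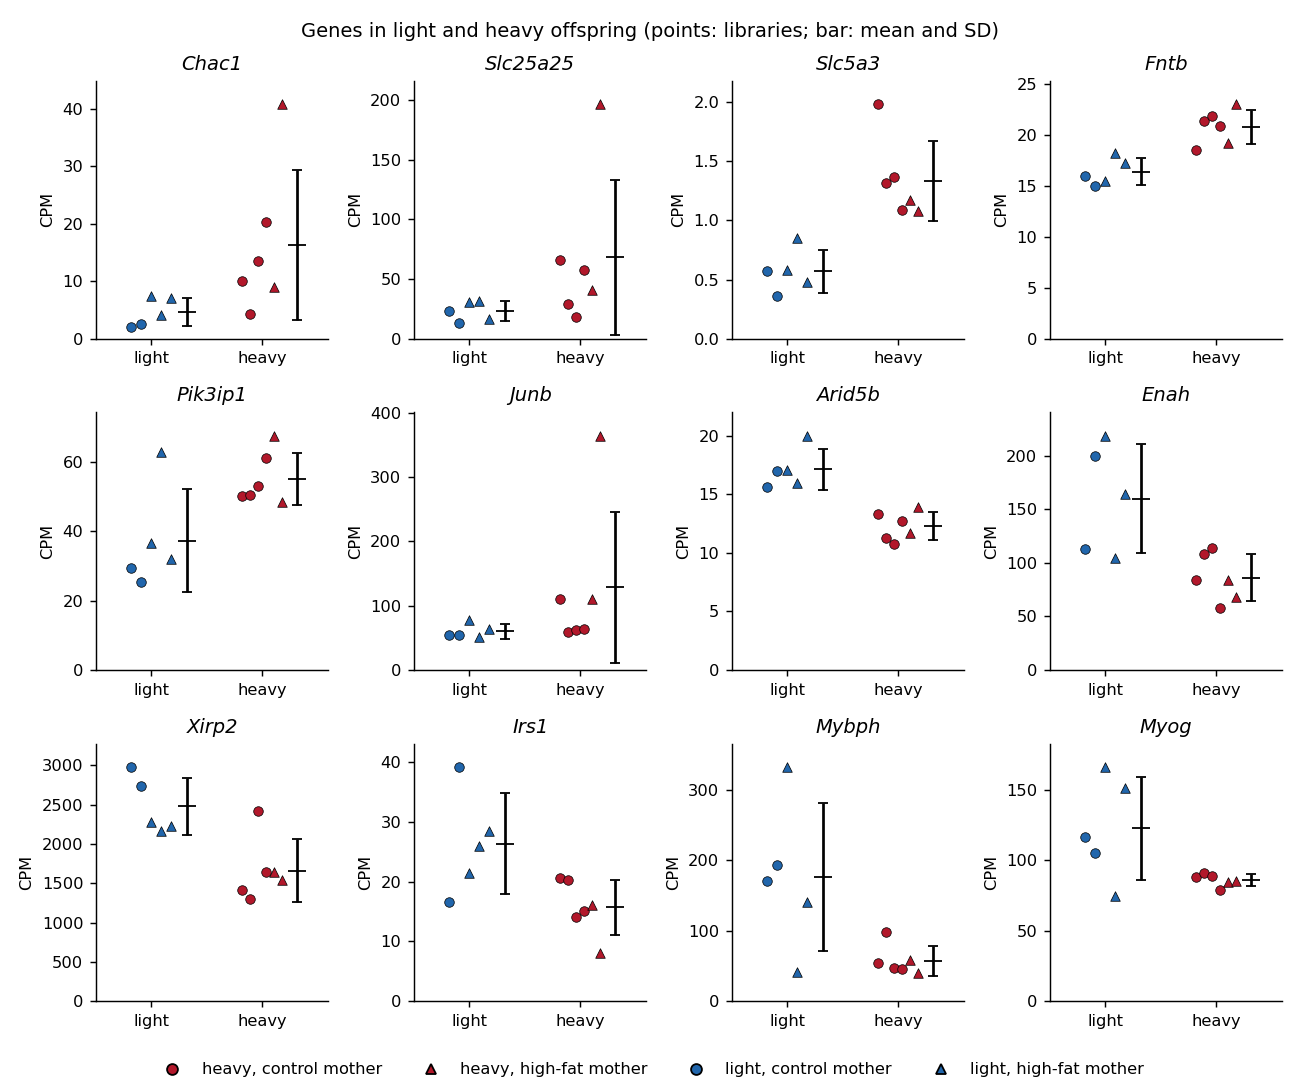
CPM (vertical axes, from 0) of 12 genes in light (blue) and heavy (red) libraries, 1 point per library, circles control and triangles high-fat mothers, with mean and SD beside them (n = 5 and 6). Slc5a3, Fntb and Arid5b show no overlap between the classes, and heavy 6 carries much of the spread of Chac1, Slc25a25 and Junb.

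Complete separation was rare. In 21 genes (0.194%) every heavy library was above every light one, and in 9 genes (0.0832%) every heavy library was below. The first group held Adh5 (log2 difference 0.22 ± 0.080), Bcs1l, an assembly factor of respiratory complex III (0.34 ± 0.10), and Lamtor5, a subunit of the Ragulator complex that brings mTORC1 to the lysosome (0.28 ± 0.10). The second held Ap2a2, a clathrin adaptor subunit (-0.29 ± 0.086), and Zfp143 (-0.32 ± 0.11). These 5 were picked after their values were seen. Random class labels would place a gene in the first group with a probability of 0.00216, and likewise in the second. This is the exact permutation p given above for the heart, which also separated completely. Neither group's share of the genes exceeded that probability. Complete separation of a gene, here and in the paragraphs above, is therefore a description and not evidence of a difference.

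The gene groups of energy metabolism leaned one way. All 71 tested nuclear-encoded subunits of oxidative phosphorylation had a positive difference, between 0.05 and 0.46 on the log2 scale with a median of 0.23, against 47.8% and -0.01 over all genes. None passed, and 2 had an unadjusted p under 0.05 (the background was 1.68%): Ndufa12 of complex I (0.29 ± 0.11) and Atp5g1 of the ATP synthase (0.46 ± 0.20). Ndufa12 was at 213, 229, 204, 255, 224 and 230.0 CPM in heavy and 199, 176, 180.3, 211 and 151 CPM in light, so that heavy 3 alone fell below the highest light value. Along body weight the median over the list was 0.14 per 100 g, and 16 members had an unadjusted p under 0.05 in the rising direction (background 3.76%). The subunits were read in the same 11 libraries, so their number is not a number of independent observations.

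The same direction held for the neighbouring pathways. All 18 genes of the TCA cycle were higher in heavy muscle (median 0.15), as were 22 of 23 genes of fatty acid oxidation (0.24) and 25 of 26 of glycolysis and glycogen (0.19). Single animals moved these medians: without light 2 it was 0.15 for oxidative phosphorylation and 0.13 for fatty acid oxidation, and without light 1 it was 0.12 for glycolysis. Slc25a20, the carnitine/acylcarnitine carrier that brings fatty acids into mitochondria, was at 251 to 355 CPM in heavy and 238, 160, 234, 281 and 151 CPM in light (0.41 ± 0.18, and 0.25 without light 2). Hadhb, the thiolase subunit of the trifunctional protein, was 0.33 ± 0.17 higher (0.20 without light 2) and Idh3g of the TCA cycle 0.26 ± 0.13, and neither had an unadjusted p under 0.05. Lipid handling genes had no single direction over the diets, with a median of 0.07 over all animals (0.02 without light 1, 0.16 without heavy 5), 0.25 in control and -0.08 in high-fat offspring. Of these 29 genes, 20 were higher, 4 of them at an unadjusted p under 0.05 (background 1.68%). Dgat2, which makes triglyceride, was at 37.3 to 119 CPM in heavy and 26.3 to 55.1 CPM in light (0.84 ± 0.26, and 0.49 without heavy 6), and Plin5, which ties lipid droplets to mitochondria, was 0.53 ± 0.21 higher.

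For the oxidative genes the maternal diets gave different sizes. The median for oxidative phosphorylation was 0.41 in the control offspring alone and 0.05 in the high-fat offspring alone, and for fatty acid oxidation 0.35 and 0.12, and for glycolysis 0.37 and 0.01. Whether the difference between diets is more than the spread was tested gene by gene with the interaction term described further on, in which 1 of 71 oxidative phosphorylation genes and 6 of 26 glycolysis genes had an unadjusted p under 0.05 (background 2.51% positive and 1.94% negative). The list mean by library (each gene as log2 CPM minus its own mean) for oxidative phosphorylation was 0.42 and 0.39 in heavy 2 and 4, between -0.05 and -0.00 in the other heavy animals, and from -0.46 in light 5 to 0.15 in light 4. Light 5 was also lowest for fatty acid oxidation (-0.47), the TCA cycle (-0.31) and glycolysis (-0.34). Of the lists described below, it was highest for macrophage (1.38) and regeneration genes (0.77), while light 2 was highest for adipocyte genes (0.91). The lists share the same libraries, so their directions are not independent observations. Regulators of mitochondrial number stood near the background, with 13 of 20 higher and a median of 0.02. Ppargc1a, the coactivator PGC-1alpha, overlapped widely (6.03 to 16.2 CPM in heavy, 4.81 to 12.9 CPM in light, 0.42 ± 0.29, and 0.22 without heavy 6 or 0.70 without heavy 5).

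Markers of regenerating, denervated or immature fibres were mostly lower in heavy muscle. Of 20 genes, 19 were lower (median -0.40, and -0.25 without heavy 5), 2 of them at an unadjusted p under 0.05 (background 2.22%). Myog, the myogenic factor that denervation and repair raise, was even in heavy animals, at 79.2 to 90.9 CPM, and spread in light ones, at 116, 105, 166, 74.5 and 151 CPM (-0.48 ± 0.18). Chrng, the fetal subunit of the acetylcholine receptor, was at 4.57, 6.67, 6.85, 8.65, 12.0 and 12.4 CPM in heavy and 16.8, 10.3, 14.6, 9.60 and 41.3 CPM in light (-0.94 ± 0.33, and -0.59 without light 5). Over body weight, 18 of the 20 had a negative slope.

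Regulators of growth and of insulin action had medians between -0.09 and -0.00, against -0.01 over all genes. In the myostatin and TGF-beta pathway 6 of 24 genes were higher (median -0.09), fewer than the 47.8% of all genes, and 0 had an unadjusted p under 0.05. In the growth hormone and IGF axis 8 of 19 genes were higher (median -0.01) and none had an unadjusted p under 0.05. Igf1 was at 86.0 to 128 CPM in heavy and 168, 123, 157, 73.6 and 157 CPM in light (-0.26 ± 0.20), and Ghr, the growth hormone receptor, at 76.8 to 121 CPM and 59.1 to 113 CPM (-0.01 ± 0.18). Mstn, the myostatin gene, had too few counts to be tested, at 0 to 0.502 CPM in heavy and 0 to 0.183 CPM in light libraries. A count of 0 allows a level of up to 3 counts, which is 0.179 to 0.320 CPM in these libraries, for counting error only. The mTOR list (6 of 17 higher, median -0.05), the atrophy and autophagy list (12 of 24, median -0.00) and the insulin signalling list (8 of 27, median -0.07) had 0, 0 and 1 member at an unadjusted p under 0.05, the last being Irs1. Along body weight 21 of the 27 insulin signalling genes had a negative slope. Slc2a4, the insulin-responsive glucose transporter GLUT4, was at 640.2 to 1056 CPM in heavy and 568.1 to 914.5 CPM in light (0.21 ± 0.17), and Fbxo32, the ubiquitin ligase atrogin-1, differed by -0.09 ± 0.22.

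Markers of cells other than muscle fibres are given next, and no member passed after adjustment. Endothelial markers (7 of 10 higher, median 0.06) and those of smooth muscle and pericytes (5 of 8 higher, median 0.09) had 0 members at an unadjusted p under 0.05. Of 18 macrophage markers 17 were lower in heavy muscle, 4 at an unadjusted p under 0.05 (background 2.22%). Their median was -0.65, and -0.40 without light 5, with -1.03 in control and -0.13 in high-fat offspring alone. Their summed level ran from 664 to 1832 CPM in heavy and from 525 to 2782 CPM in light libraries, with heavy 6 the highest of the heavy and light 4 the lowest of all. Ctss, a lysosomal protease of macrophages, stood at 39.3, 49.1, 33.5, 36.98, 59.2 and 84.6 CPM in heavy and 89.6, 82.7, 112, 27.8 and 160.2 CPM in light (-0.82 ± 0.33). All 5 tested lymphocyte and mast cell markers were lower (median -0.74, with -1.11 in control and -0.25 in high-fat offspring alone). Mcpt1 had no count in any library. In such whole-muscle samples, fewer cells of a type and less RNA per cell cannot be told apart.

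Adipocyte markers gave a median of -0.72, and -0.39 without light 5, with 8 of 11 lower. In control offspring alone the median was -1.19 and in high-fat offspring alone -0.31. Cfd, the adipokine adipsin, was at 76.1 to 144 CPM in heavy and 200.4, 277, 166, 65.5 and 283 CPM in light (-0.96 ± 0.31), and Retn, resistin, differed by -1.47 ± 0.48. Adipoq, adiponectin, was at 5.26 to 38.6 CPM in heavy and 68.6, 99.7, 9.82, 26.5 and 92.8 CPM in light (-0.997 ± 0.55, and -0.64 without light 5). Light 3, the animal with the most weighed fat, had the least Adipoq RNA of the light animals. Part of the adipocyte list is also expressed by soleus fibres, Car3 most of all, which accounts for most of its summed level (10024 to 14897 CPM in heavy, 7428 to 15228 CPM in light).

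Erythroid genes pointed the other way. All 6 were higher in heavy muscle (median 0.40, and 0.26 without heavy 6), 5 of them at an unadjusted p under 0.05 (background 1.68%), and over body weight all 6 had an unadjusted p under 0.05. Alas2, the first enzyme of haem synthesis in red cell precursors, was at 3.50, 5.54, 5.07, 4.65, 3.68 and 7.14 CPM in heavy and 2.12, 4.47, 1.91, 3.63 and 2.51 CPM in light (0.76 ± 0.28, and 0.50 without heavy 6). Hbb-b1, a beta globin, was at 43.0 to 59.8 CPM in heavy and 38.8, 38.9, 37.5, 51.2 and 36.95 CPM in light (0.34 ± 0.13), though short reads may be split among the globin copies. The summed level was 1033 to 1736 CPM in heavy and 816 to 1332 CPM in light, and the part of blood left in the tissue was not tested.

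Genes that follow the hour of the day, stress hormones and recent activity were also higher on the median. Circadian genes had a median of 0.31 (10 of 15 higher), and of 0.18 without light 1. Nr1d1, the repressor REV-ERB alpha, was at 350 to 892 CPM in heavy and 263 to 420.2 CPM in light (0.62 ± 0.22), and Ciart, a repressor of the clock, was 1.46 ± 0.59 higher (its row carries the older name RGD1566380). Arntl, the activator BMAL1 whose rhythm runs opposite to theirs, had a log2 difference of -1.27 ± 0.54 and was picked after its value was seen. The labels used here give no hour of death. Of 14 glucocorticoid-response genes 13 were higher (median 0.42), but the median was 0.11 without heavy 6 and 0.07 without heavy 6 and light 5 together. Of 15 immediate early genes 12 were higher (median 0.65, and 0.07 without heavy 5). Junb was at 110.3, 58.5, 61.8, 64.4, 111 and 364 CPM in heavy and 53.9, 53.7, 78.1, 50.9 and 63.9 CPM in light (1.13 ± 0.34, and 0.58 without heavy 6). Fos stood highest in heavy 1, at 254 CPM, and at 25.1 to 118 CPM in the other heavy animals against 21.6 to 51.4 CPM in light (1.40 ± 0.52).

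Heavy 6 stood out in the inflammatory and stress genes. Socs3, the feedback inhibitor of cytokine signalling, was at 90.4 CPM in heavy 6 and at 2.62 to 5.35 CPM in the other heavy and 1.22 to 6.48 CPM in the light libraries. Its log2 difference of 1.78 ± 0.88 was -0.12 without heavy 6. Mt1a, a metallothionein, was at 37.2 CPM there and 1.07 to 3.29 CPM in the other heavy libraries, and its difference went from 1.51 ± 0.68 to -0.11 without that animal. The list of inflammatory signalling as a whole had a median of 0.10 (13 of 20 higher), and of -0.16 without heavy 6. Schwann cell and nerve markers were at 2087 CPM in sum in heavy 3 and 146 to 315 CPM in the other heavy libraries, against 139 to 336 CPM in light. Their median of 0.84 was 0.14 without heavy 3, and along body weight it was negative (-0.21).

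**Figure D4:**
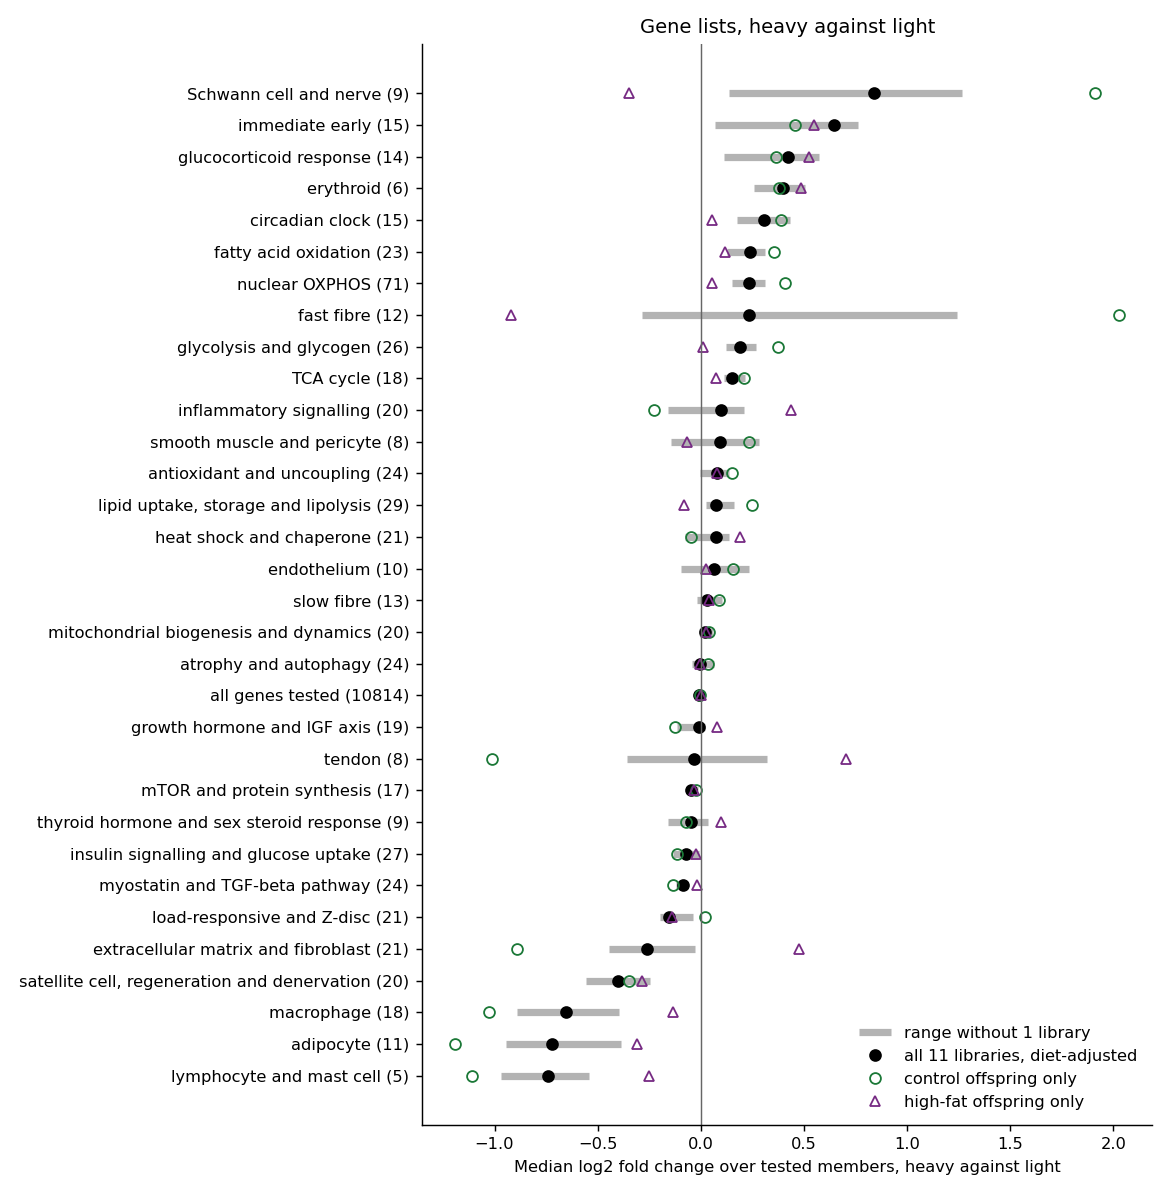
Median log2 fold change, heavy against light, over the tested members of each list (number in parentheses), black for all 11 libraries with diet as covariate, grey bars for the range when 1 library is left out, green circles for control and purple triangles for high-fat offspring alone. The oxidative phosphorylation, fatty acid oxidation, TCA cycle, glycolysis and erythroid lists lie to the right of 0 in both diets, while extracellular matrix, tendon, fast fibre and Schwann cell lists change sides between the diets.

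The last comparison asked whether heavy and light animals differed in the same way in both maternal diets. The interaction term called 0% of genes (0 of 10814, smallest adjusted p = 0.204), with 271 (2.51%) positive and 210 (1.94%) negative at an unadjusted p under 0.05. DESeq2 called 15 and edgeR's likelihood ratio test 16. The 4 cells hold 4, 2, 2 and 3 animals, so 1 animal can move the result: without light 5 edgeR's quasi-likelihood test called 18 genes, without heavy 5 it called 4 (Birc3, Icam1, Selp and Trib2), without light 2 it called 2 (Alb and Hp), and without each of the other 8 animals none.

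Genes of the extracellular matrix and of fast fibres differed in opposite directions in the 2 diets. Of 21 matrix and fibroblast genes 15 had an unadjusted interaction p under 0.05 (background 2.51% positive and 1.94% negative), and none passed after adjustment. As in every list here, the members were read in the same 11 libraries, so such a count is not a number of independent observations. In control offspring the matrix list was lower in heavy animals (median -0.89) and in high-fat offspring higher (median 0.47), and the medians of the 8 tendon markers were -1.01 and 0.70. In high-fat offspring the classes overlapped in the mean of each list by library. For matrix genes light 5 (0.71) was above heavy 5 and 6 (0.47 and 0.45), and for tendon light 5 (0.49) was above heavy 6 (0.45). Thbs4, a matrix glycoprotein of tendon and muscle attachment, was at 120, 192, 106 and 82.1 CPM in heavy and 283 and 460.5 CPM in light control offspring, without overlap. With 4 heavy and 2 light animals there, this is a description and not evidence of a difference. In high-fat offspring Thbs4 was at 534 and 536 CPM in heavy and 343, 150.4 and 534 CPM in light. Its interaction was 2.21 ± 0.61 on the log2 scale (unadjusted p = 0.00379, edgeR adjusted p = 0.970). Postn, periostin, a matrix protein of repair, was at 15.5 to 25.1 CPM in the 4 heavy and 59.97 and 142 CPM in the 2 light control offspring, and at 107 and 51.7 CPM against 22.5, 14.5 and 68.7 CPM in high-fat offspring (interaction 3.59 ± 0.77, adjusted p = 0.718).

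Fast fibre genes did the opposite. The median over 12 genes was 2.03 in control offspring and -0.92 in high-fat offspring, and 6 of the 12 had an unadjusted interaction p under 0.05 (background 2.51% positive and 1.94% negative). Over both diets the median was 0.23, and -0.29 without light 2. Myh2, the fast oxidative (type IIA) myosin heavy chain, was at 1806, 2288, 583 and 2391 CPM in heavy and 475 and 107 CPM in light control offspring, and at 261 and 100.1 CPM in heavy and 598, 2282 and 340.0 CPM in light high-fat offspring. The ranges did not overlap within either diet, in opposite directions. With 4 heavy against 2 light control and 2 heavy against 3 light high-fat offspring, random class labels separate a gene more readily than over all animals. Separation within a diet, here and for Thbs4 and Tpm1, is therefore a description and not evidence of a difference. The Myh2 interaction was -5.18 on the log2 scale (unadjusted p = 0.00195, edgeR adjusted p = 0.935). Over both diets the class difference of Myh2 was 0.08 ± 1.47. Tpm1, an alpha tropomyosin of fast fibres, had the same order, 3913 to 5532 CPM against 1757 and 1040 CPM in control and 1353 and 963 CPM against 2557, 5806 and 2010 CPM in high-fat offspring (-3.38 ± 0.60, adjusted p = 0.337). Myh7 showed no such split (0.22 on the log2 scale, unadjusted p = 0.545). Postn and Tpm1 were among the 10 genes with the smallest interaction p and were picked after their values were seen.

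With the classes set within control offspring alone (4 heavy and 2 light), edgeR called 5 genes. Both light control animals had the letter C in their names, and every heavy control animal had A or H. Weight class and letter therefore cannot be told apart there, nor in any median given above for control offspring alone. Cd24 was higher in heavy animals (5.00 to 5.89 CPM against 0.898 and 0.548 CPM). Cpa3, a mast cell protease (9.49 to 14.0 CPM against 33.9 and 29.04 CPM), Postn, Prg4, the lubricant of joints and tendons (42.9 to 52.1 CPM against 101 and 137 CPM), and RT1-Ba, a class II antigen-presenting molecule (30.7 to 34.7 CPM against 96.1 and 76.3 CPM), were lower. In high-fat offspring alone (2 heavy and 3 light) it called none.

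**Figure D5:**
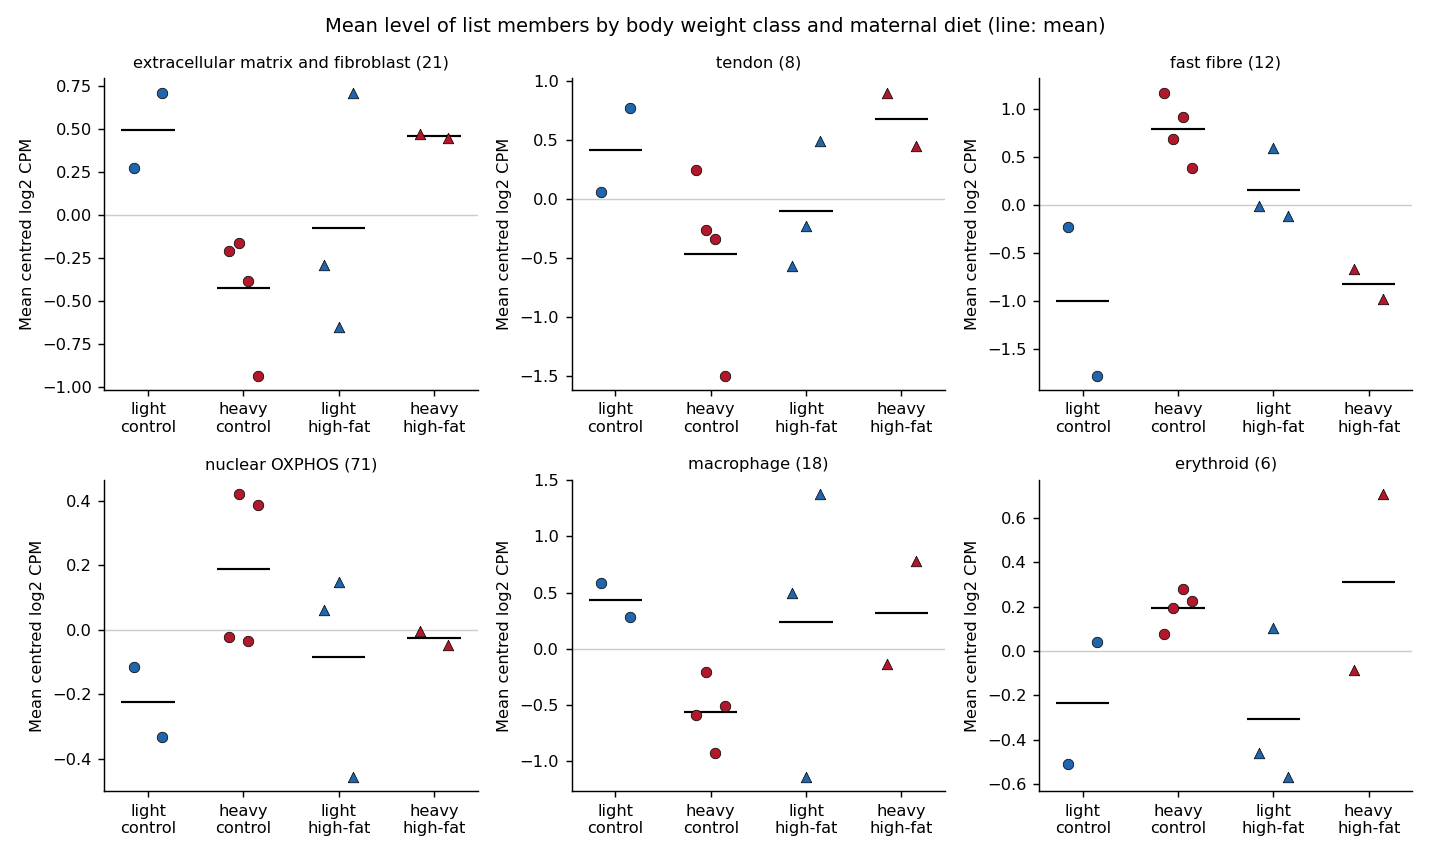
Mean of log2 CPM over list members, each gene centred on its mean over the 11 libraries (vertical axis, log2 units), by weight class and maternal diet for 6 lists, 1 point per library, red heavy, blue light, line the mean. The matrix list is below 0 in all 4 heavy control animals (-0.93 to -0.16) and above 0 in both heavy high-fat animals (0.47 and 0.45), and the fast fibre list is the reverse (0.39 to 1.18, and -0.66 and -0.98). For the matrix list light 5 (0.71) lies above both heavy high-fat animals, while light 3 and 4 (-0.29 and -0.65) lie below them.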

How the data were processed

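Soleus poly(A) RNA of 11 rats was sequenced, and the authors deposited whole-number read counts per gene for every library. Per the submitters' processing notes, FastQC, BWA, HTSeq and edgeR were used. Genome build, annotation and strand setting were not given in the sources used here. Per the labels' protocols the reads were short Illumina reads, so paralogs such as globins, myosins and metallothioneins may share reads. Of 16810 rows, 14002 equal a RefSeq symbol of assembly GRCr8, 2315 an older symbol, and 469 had no single match. Rows with a date for a name (24, with 0.107% of counts) are not named.

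Counts were fitted in edgeR 4.0.16 (R 4.3.3, limma 3.58.1) after filterByExpr, which kept 10814 genes, with TMM scaling, the quasi-likelihood F test and Benjamini-Hochberg adjustment at 0.05. Fits used weight class with and without maternal diet, body weight per 100 g with and without diet, and the class by diet interaction. The SE of a gene was back-calculated from the test, as its absolute log2 value divided by the square root of the F statistic. DESeq2 1.42.0, voom, other scalings, filters, covariates, cuts at 700 and 800 g and leaving out libraries were alternatives. Organ weights were compared by exact permutation (SciPy 1.17.1). The scripts were tested on simulated data. Replicate pairs of 1 class differed by at least 25.1 times sampling noise, so each was counted as a sample of its own. Each animal came from its own litter.

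Named genes were the 10 per direction with the smallest p by class, the 5 per direction by slope, up to 2 per list, and 10 growth, fibre and fat genes. Some genes that the rule names are not reported here. The weight classes, the 31 lists and the tests were chosen with earlier results of these data known, so lists are described by counts and medians with no test.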

Additional observations from a re-analysis of the deposited data

Results flagged for a closer look

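Dixon's test at the 0.05 level was applied within each weight class to 222 groups of values. In 36 of the groups the highest or lowest animal lay farther from its nearest neighbour than the test allows. Chance alone flags about 1 in 20 groups only where values are normally distributed. CPM was used without a log and the same animals recur in the groups, so 36 does not measure an excess. Heavy 6 accounted for 9 of the 36, each as the highest heavy library: Slc25a25 at 196 CPM, Junb at 364, Cebpb at 249, Socs3 at 90.4, Nrip1 at 61.8, Mt1a at 37.2, Pfkfb3 at 32.8, S100a8 at 20.1 and Hspa8 at 6.25 CPM. The Hspa8 row is far too low for that chaperone and its count is uncertain.

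The other heavy animals were flagged less often. Heavy 1 stood apart for Myh4 (150 CPM), Rara (21.6 CPM) and Slc5a3 (1.98 CPM), and heavy 2 for Mybph (98.6 CPM) and, as the lowest, Adipoq (5.26 CPM). Heavy 3 stood apart for Xirp2 (2423 CPM), Myh1 (559 CPM), Mal (48.6 CPM) and, as the lowest, Osgin1 (11.9 CPM), and heavy 4 for Sdhd (573 CPM) and Hdhd3 (34.1 CPM).

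Among light animals, light 2 was the lowest for Nedd9 (28.04 CPM), Myh1 (19.5 CPM) and Hspa8 (0.183 CPM). Light 3 had the most perirenal fat (75.3 g), the highest fat share (16.3%), the lowest glucose (5.40 mmol as labelled) and the highest S100a8 (10.1 CPM). Light 4, the heaviest of the light class, was the highest for Myh2 (2282 CPM), Pfkfb1 (123 CPM), Hbb-b1 (51.2 CPM), Hdhd3 (23.8 CPM) and Osgin1 (20.7 CPM). Light 5 had the most ribosomal RNA (0.462% of counts, with Rn45s at 3560 and Rn28s at 548 CPM) and the highest Chrng (41.3 CPM).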

How the results depend on the processing

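The heavy against light comparison with diet called 0 genes in edgeR's quasi-likelihood test, 1 in DESeq2, 3 in the likelihood ratio test and 5 in control offspring alone, where 3 list members were called. Without diet, leaving out the animals nearest 750 g gave 1 gene, Osgin1. The body weight slope with diet called 1 gene, but 0 under RLE scaling, voom, the letter of the animal's name as covariate, total fat as covariate, or without heavy 6 and light 5 together, 23 in DESeq2 and 10 in the likelihood ratio test. Without 1 library it called 0 to 3. Without diet it called 12 in DESeq2, 5 in the likelihood ratio test, 0 with the letter or without that pair, and 0 to 1 without 1 library. The interaction called 7 genes with no filter, 15 in DESeq2, 16 in the likelihood ratio test, 7 without the pair and 0 to 18 without 1 library. Of the 13 measures, 0 passed at cuts of 700 or 800 g and 0 to 2 without 1 animal. Correlations passed for 0 in control offspring and 2 to 6 without 1 animal. The cause of these changes was not tested, though fewer animals were left in several.

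Signs turned for genes that did not pass. At 800 g the log2 difference was -0.95 for Myh4, -0.81 for Myh1 and -0.92 for Mal. In high-fat offspring alone it was -0.13 for Myh1, 0.12 for Lum, 0.16 for Loxl1, 0.065 for Prg4, 0.66 for Thbs4, 0.20 for Cspg4, -0.047 for Mal, 0.065 for Myh7 and -2.56 for Myh2. In control offspring alone it was -0.19 for Socs3, 0.12 for Ghr and 0.032 for Fbxo32. Without heavy 6 and light 5 it was -0.13 for Socs3, -0.040 for S100a8, -0.084 for Mt1a and 0.033 for Ghr. With total fat as covariate it was 0.0084 for Yap1, 0.22 for Ghr and -0.0085 for Myh2, and with the letter -0.31 for Myh2. Ghr was 0.0014 under RLE, 0.0013 in DESeq2 and 0.0059 in voom. At 700 g Ghr was 0.087, Myh7 0.14 and Fbxo32 0.062, and without the animals nearest 750 g Ghr was 0.11 and Fbxo32 0.00085. The fat share differed by 0.928 points within diet and 1.80 at 800 g, and the brain correlation was -0.152 in control offspring.

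Without 1 library, ranges crossed 0 for Cspg4 (-0.42 to 0.045), Egr2 (-0.016 to 1.10), Fbxo32 (-0.21 to 0.048), Ghr (-0.10 to 0.076), Mt1a (-0.11 to 2.00), Myh2 (-1.37 to 1.47), Myh7 (-0.19 to 0.0035), Socs3 (-0.12 to 3.05), the fat share (-1.002 to 2.13 points) and its correlation (-0.091 to 0.847). List medians crossed 0 for fast fibre (-0.29 to 1.24), tendon (-0.36 to 0.32), inflammatory signalling (-0.16 to 0.21), smooth muscle and pericyte (-0.14 to 0.28), endothelium (-0.10 to 0.23), heat shock (-0.08 to 0.14), thyroid and sex steroid response (-0.16 to 0.03), and the growth hormone axis (-0.12 to 0.02), and 4 other lists near 0: antioxidant (-0.0060 to 0.14), atrophy (-0.04 to 0.06), mitochondrial biogenesis (-0.0064 to 0.06) and slow fibre (-0.02 to 0.10). No paired analysis was possible because replicate numbers were given in accession order and pair no animals.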

Other observations

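Lists of 2 further gene groups were drawn up after the values of Chac1 and Enah had been seen, and are described without a test. Of 21 tested genes of the integrated stress response, the pathway in which ATF4 drives amino acid and redox genes, 11 were higher and 10 lower in heavy muscle, with a median log2 difference of 0.03, against 2.17 for Chac1 itself. Of 20 regulators of actin and cell adhesion, 14 were lower, with a median of -0.08, and the 4 at an unadjusted p under 0.05 were Enah, Nedd9, Myh10 and Myh14, all of which were already known to be lower when the list was made. Along body weight 16 of the 20 had a negative slope, with a median of -0.04 per 100 g.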
